A study of Rattus norvegicus with 10 samples.

Results

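The genes described here are Notch2, Notch3, Lfng and Hes1, 2 receptors of the Notch pathway, an enzyme that modifies such receptors and a target gene of the pathway. They were taken by symbol from the deposited table of lens capsules, in which they are 4 of 3334 genes. The capsule encloses the lens, and lens epithelial cells line its inner face. Each of the 10 samples held both capsules of 1 male Sprague-Dawley (SD) rat aged 6 weeks. For the 5 rats of the Hypothermia Group, isolated lenses had stood for 8 h at 4°C in Hibernate-A medium. For the 5 rats of the Normal Group, capsules were removed right after euthanasia and saw no such medium, so that cold, medium and time outside the body cannot be told apart. The study used the comparison to look for molecules that change while a cold-treated lens turns opaque. The table is not a list of all expressed genes. It holds genes that the authors had found to differ between these same rats, so that every gene in it was listed as higher or lower beforehand, and the tests below describe the size and the steadiness of differences that the listing already implies.

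In the Notch pathway, a ligand on 1 cell binds a receptor on its neighbour, the receptor is cut, and its inner part enters the nucleus, where it joins the DNA-binding protein Rbpj and a Mastermind-like protein (Maml) to switch on target genes. Notch2 and Notch3 are receptors, and Lfng is the Golgi enzyme Lunatic fringe, which lengthens sugar chains on the outer part of Notch receptors and so changes which ligands they answer to. Hes1 is a repressor of transcription and a classic target gene. In the lens, Notch signalling is known for keeping epithelial cells dividing and for its part in their passage into fibre cells, while Notch3 is also well known from mural cells, the pericytes and smooth muscle cells of vessel walls.

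All 4 genes are protein-coding. In Rnor_6.0, Notch2 lies on chromosome 2 from 200187179 to 200320215 on the + strand, Notch3 on chromosome 7 from 14138495 to 14189688, Lfng on chromosome 12 from 16118634 to 16126953 and Hes1 on chromosome 11 from 74312806 to 74315248, the last 3 on the - strand. No other gene of the table and no other RefSeq gene overlaps any of them. The 250 bases before the RefSeq start of Hes1 and Lfng are shown because each holds 2 matches to the core motif of Rbpj, TGGGAA on either strand, written in capitals. These sequences are those of RefSeq on GRCr8, a later build than that of the counts.
Hes1 promoter, chr11:84213046-84213295, - strand: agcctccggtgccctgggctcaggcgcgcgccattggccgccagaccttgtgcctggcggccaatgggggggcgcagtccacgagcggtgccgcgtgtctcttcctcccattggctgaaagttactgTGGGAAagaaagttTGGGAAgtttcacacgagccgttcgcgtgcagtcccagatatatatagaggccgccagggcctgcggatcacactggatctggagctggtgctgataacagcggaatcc
Lfng promoter, chr12:19152919-19153168, - strand: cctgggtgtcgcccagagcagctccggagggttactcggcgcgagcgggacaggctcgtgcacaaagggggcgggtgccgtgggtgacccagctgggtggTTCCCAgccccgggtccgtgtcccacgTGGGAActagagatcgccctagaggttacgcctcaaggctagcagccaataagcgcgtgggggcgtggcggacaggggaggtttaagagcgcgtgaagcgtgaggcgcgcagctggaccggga

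The motif was searched in windows from 250 bases before to 50 bases after each start, and all 4 genes had a window. Of the 33469 windows of the rat table, 25.7% hold at least 1 match to TGGGAA and 3.85% hold 2 or more. In Hes1 both matches read along the gene, with their first bases at -123 and -109 from the start. In Lfng 1 match at -123 reads along the gene and shares 2 bases with an E box (CANNTG, found in 72.1% of windows), while the other, at -150, lies on the opposite strand. Notch3 has 1 match, after the start at 43, and Notch2 has none. Of the other target genes in the table, Hes5 and Hey2 also have 2 matches each, Heyl has none and Ccnd1 had no window. Rbpj and Fhl1 each have 1 annotated start with 2 matches. The match in Hes5 and Hey2 that reads along the gene is shown beside those of Hes1 and Lfng, with the capitals as above.
Hes1 site, chr11:84213151-84213180, - strand: tgaaagttactgTGGGAAagaaagtttggg
Lfng site, chr12:19153024-19153053, - strand: ccgtgtcccacgTGGGAActagagatcgcc
Hes5 site, chr5:170804467-170804496, + strand: ggccgctgagtgTGGGAAcggccgcggcgc
Hey2 site, chr1:28641028-28641057, + strand: tgggctgcggcgTGGGAAagagcctccagg
Hes1 also has 4 matches to the N box (CACNAG on either strand, found in 43.1% of windows), the motif to which Hes proteins bind. A match says only that the letters are there, and whether any protein bound them was not measured.

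**Figure D1:**
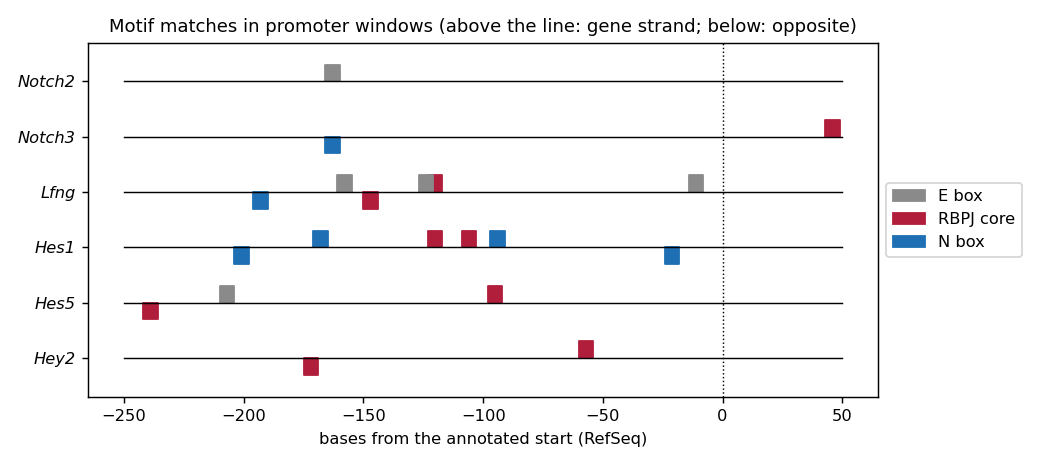
Matches to the Rbpj core TGGGAA, the N box CACNAG and the E box CANNTG in the RefSeq windows of 6 genes, plotted by distance from the annotated start in bases (boxes above a line read along the gene, below it on the opposite strand; the E box reads the same on both and is drawn above). Hes1, Lfng, Hes5 and Hey2 each hold 2 Rbpj matches, Notch3 holds 1 after the start, and Notch2 holds none.

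The counts were divided by the authors' size factors (0.744 to 0.980 for Hypothermia rats, 1.08 to 1.26 for Normal rats), and the quotients are called normalized counts here. The listed genes summed to 9026144 to 12415121 counts in a Hypothermia rat and 4792595 to 8177803 in a Normal rat, and these sums are not library depths. All 10 samples, the replicates of this comparison, were fitted together with edgeR across the 3222 genes with enough counts. A gene was called at an adjusted p under 0.05, with adjustment over the number of expressed genes that the study states, which is larger than the table. Of the 3222 tested genes, 72.9% were called, 20.5% as lower and 52.3% as higher in the Hypothermia Group. Against that background, 2 of the 4 genes were called, Notch3 and Hes1, both as lower, while Notch2 and Lfng were not. With the size factors of the study, 36.3% of all tested genes and 3 of the 4 had a log2FoldChange below 0. In the edgeR fit without Normal replicates 4 and 5, none of the 4 and 0 of all 3254 tested genes were called. The lowest adjusted p of that edgeR fit was 0.0571, and Notch3 had 0.0615. DESeq2 on the same rats called Notch3 and 1413 genes in all.

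Notch3 had the largest difference of the 4. Its normalized counts were 354, 250, 335, 201 and 216 in Hypothermia replicates 1 to 5 and 582, 565, 422, 756 and 1091 in Normal replicates 1 to 5. Every Hypothermia rat lay below every Normal rat, and 58.5% of all tested genes had groups that did not overlap, 16.7% with Hypothermia rats below and 41.9% with Hypothermia rats above. The means were 271 ± 69.7 (SD, n = 5) with hypothermia and 683 ± 257 (SD, n = 5) without, and the Normal mean leaned on replicate 5, the highest. The log2FoldChange was -1.33 (standard error 0.26, adjusted p = 0.00926, edgeR), and an exact permutation test gave a two-sided p of 0.00794, the smallest that 5 rats against 5 allow. When each of the 10 rats was left out in turn, Notch3 kept its call in every fit, with log2FoldChanges from -1.46 to -1.10.

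Hes1 was lower by a smaller step, with less spread. Its normalized counts were 932, 868, 823, 1002 and 901 in Hypothermia replicates 1 to 5 and 949, 1173, 1251, 1412 and 1256 in Normal replicates 1 to 5. Normal replicate 1 lay among the Hypothermia rats, below Hypothermia replicate 4, and the other 4 Normal rats lay above all of them. The log2FoldChange was -0.42 (standard error 0.10, adjusted p = 0.0214, edgeR). The call was lost without Hypothermia replicate 3 (-0.38), without Normal replicate 4 (-0.35) and without Normal replicate 5 (-0.40), with adjusted p-values (edgeR) of 0.0549, 0.0561 and 0.0528.

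Notch2 was the more abundant receptor, and its groups overlapped. Its normalized counts were 2966, 3309, 2508, 2656 and 3525 in Hypothermia replicates 1 to 5 and 3476, 3276, 3595, 5269 and 4997 in Normal replicates 1 to 5. The 2 highest values, in Normal replicates 4 and 5, stood apart, and the other 3 Normal rats lay within or just above the range of the Hypothermia Group. Its log2FoldChange, -0.46 (standard error 0.16), did not pass the threshold (adjusted p = 0.0727, edgeR). It was close in size to that of Hes1 with a wider error, and it stayed uncalled whichever rat was left out, between -0.53 and -0.36.

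Lfng was the only 1 of the 4 with a higher mean in the Hypothermia Group under this scaling. Its normalized counts were 1665, 1613, 1789, 1529 and 1307 in Hypothermia replicates 1 to 5 and 1265, 1284, 1462, 1298 and 1205 in Normal replicates 1 to 5. Hypothermia replicate 5 lay among the Normal rats, and the other 4 lay above them. Its log2FoldChange, 0.28 (standard error 0.09), did not pass the threshold (adjusted p = 0.0689, edgeR). Without Hypothermia replicate 5 it was 0.34 and was called (adjusted p = 0.0289, edgeR), and in the other 9 such fits it was not. Under TMM, a scaling built on the listed genes, the log2FoldChange of Lfng was -0.010, so its direction depends on the scaling.

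**Figure D2:**
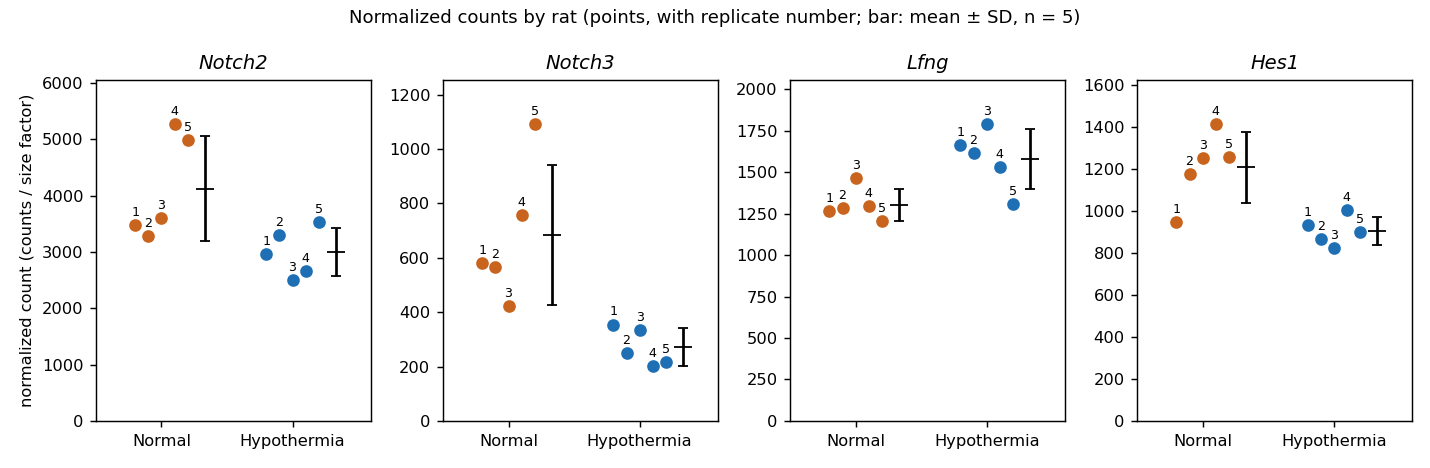
Normalized counts (counts divided by the size factor) of Notch2, Notch3, Lfng and Hes1 in each rat, with the replicate number over each point and the mean ± SD (n = 5) beside each group; the axes start at 0. The groups separate for Notch3 alone, and Normal replicates 4 and 5 hold the 2 highest values of both receptors.

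Per length, Hes1 and Lfng had the highest levels and Notch3 the lowest. In FPKM (fragments per kilobase of gene, scaled by the authors), Hes1 had 37.7 ± 2.81 (SD, n = 5) with hypothermia against 50.3 ± 7.03 (SD, n = 5) in Normal rats. Lfng had 44.4 ± 5.05 (SD, n = 5) and 36.6 ± 2.70 (SD, n = 5), so that its range met that of Hes1 in both groups. Notch2 had 15.6 ± 2.22 (SD, n = 5) and 21.4 ± 4.86 (SD, n = 5), below every value of Lfng and Hes1 in both groups. Notch3 was lowest, with 2.23 ± 0.572 (SD, n = 5) and 5.61 ± 2.11 (SD, n = 5). The order of the upper pair changed, since within a rat Hes1 was above Lfng in 5 of 5 Normal rats and in 1 of 5 Hypothermia rats.

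The ratio of 2 genes within a rat does not depend on how the libraries are scaled, and the 6 ratios among the 4 genes were compared by exact permutation tests, two-sided, with p-values adjusted over the 6 pairs. Notch2, Notch3 and Hes1 were all listed as lower and Lfng as higher, so the direction of a ratio with Lfng was given by the listing, whereas the other 3 compare genes listed on the same side. Notch3 was lower relative to Notch2. The FPKM of Notch2 was 7.41 ± 2.34 (SD, n = 5) times that of Notch3 in Hypothermia rats and 4.03 ± 0.929 (SD, n = 5) times in Normal rats, a log2 difference of 0.85 (95% interval 0.17 to 1.49, exact p = 0.0238, adjusted p = 0.0286). The groups overlapped, because Hypothermia replicates 1 and 3 lay within the range of the Normal rats. Notch3 was also lower relative to Hes1, by a log2 difference of -0.89 (95% interval -1.60 to -0.23, exact p = 0.0238, adjusted p = 0.0286).

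The ratio of Notch2 to Hes1 differed between the groups by less than the spread between rats. The FPKM of Notch2 was 0.415 ± 0.0665 (SD, n = 5) of that of Hes1 with hypothermia and 0.426 ± 0.0672 (SD, n = 5) without, a difference of -0.04 on the log2 scale (exact p = 0.833). The 95% interval of that difference ran from -0.41 to 0.32, so that a change of either sign within those bounds was not rejected by this test.

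Both ratios that set Lfng against a called gene separated the groups. The FPKM of Lfng was 0.980 to 1.47 times that of Hes1 in Hypothermia rats and 0.621 to 0.901 times in Normal rats, a difference of 0.68 on the log2 scale (95% interval 0.37 to 1.0, exact p = 0.00794, adjusted p = 0.0238). Notch3 stood at 0.0384 to 0.0622 of Lfng in Hypothermia rats and 0.0844 to 0.265 in Normal rats, a difference of -1.57 on the log2 scale (95% interval -2.27 to -0.90, exact p = 0.00794, adjusted p = 0.0238). For Notch2 against Lfng the difference was -0.72 on the log2 scale (exact p = 0.0238, adjusted p = 0.0286), and the groups overlapped. With each rat left out in turn, the Lfng/Hes1 and Notch3/Lfng ratios kept an adjusted p under 0.05 from the exact test in 10 of 10 cases, the Notch2/Notch3 and Notch3/Hes1 ratios in 5 and the Notch2/Lfng ratio in 4. Groups that separate fully stay separated whichever rat is left out, so the 10 of 10 adds little to the separation itself.

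**Figure D3:**
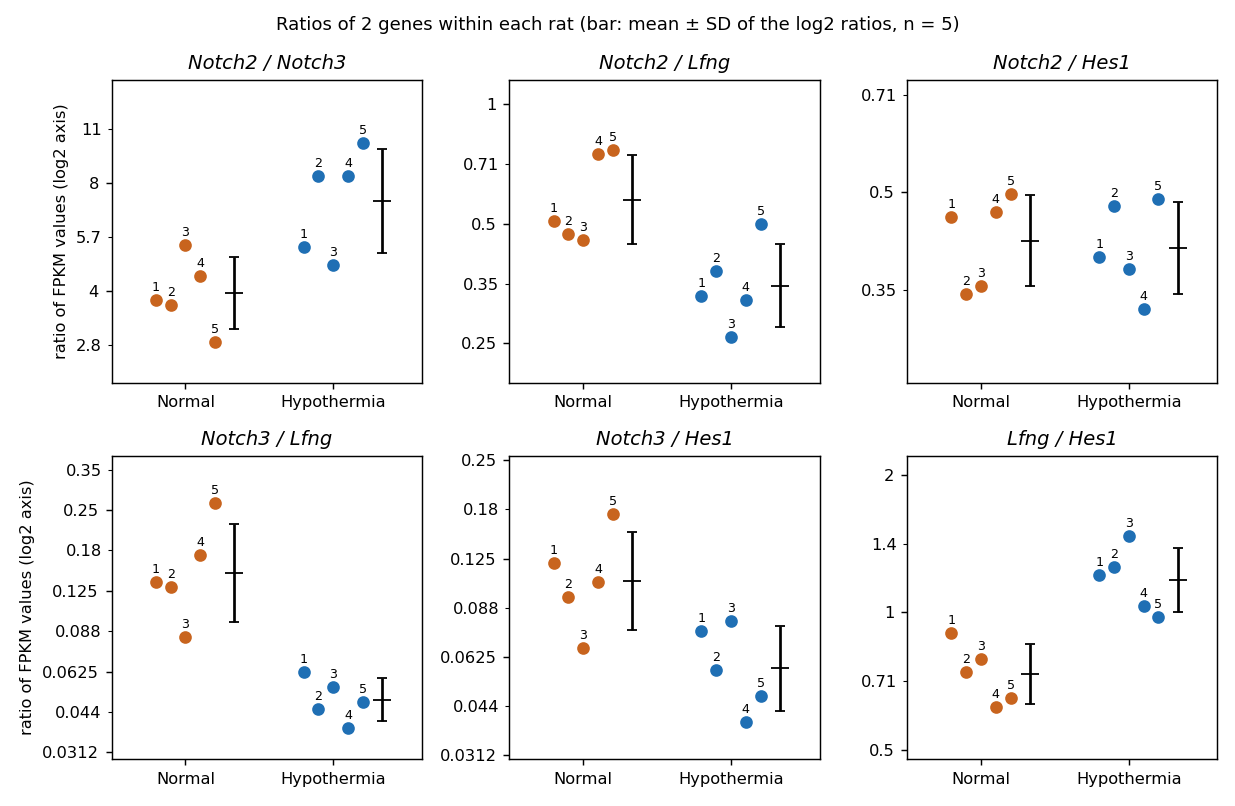
FPKM ratios of the 6 pairs of genes within each rat, on log2 axes, with replicate numbers over the points and the mean ± SD of the log2 ratios (n = 5) beside each group. The groups separate for Notch3/Lfng and Lfng/Hes1, overlap for the other 4 pairs, and have close means for Notch2/Hes1 (0.415 and 0.426).

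How far each gene appears to fall depends on what it is measured against. The scalings built on the listed genes (TMM, median of ratios, upper quartile) shifted the median gene by -0.33 to -0.29 on the log2 scale, and the total of the listed genes shifted it by -1.23. Under TMM the log2FoldChanges were -1.63 for Notch3, -0.71 for Hes1, -0.75 for Notch2 and -0.010 for Lfng, with adjusted p-values (edgeR) of 0.00370, 0.00535, 0.0150 and 1. Pax6, a transcription factor of the lens epithelium, and Gja1, the connexin of its gap junctions, are also in the table, with log2FoldChanges of -0.26 (called) and -0.43 (not called). Both were listed as lower and Lfng as higher, so the direction of Lfng against them was given by the listing. Relative to Pax6, Notch3 was lower by a log2 difference of -1.04 (exact permutation test, p = 0.0159) and Lfng higher by 0.53 (exact permutation test, p = 0.00794), while Hes1 differed by -0.15 and Notch2 by -0.19 (exact p = 0.190 and 0.294). Relative to Gja1 the log2 difference was -0.86 for Notch3 (exact permutation test, p = 0.0476) and 0.71 for Lfng (exact p = 0.00794), and Notch2 and Hes1 differed by -0.0090 and 0.029 (exact p = 0.937 and 0.754), with 95% intervals from -0.34 to 0.29 and from -0.18 to 0.26. Relative to Actb, which encodes β-actin and was itself called as higher (0.57), all 4 log2 differences were below 0, that of Lfng at -0.30 (exact p = 0.127). The listing likewise gave the direction of Notch2, Notch3 and Hes1 against Actb.

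**Figure D4:**
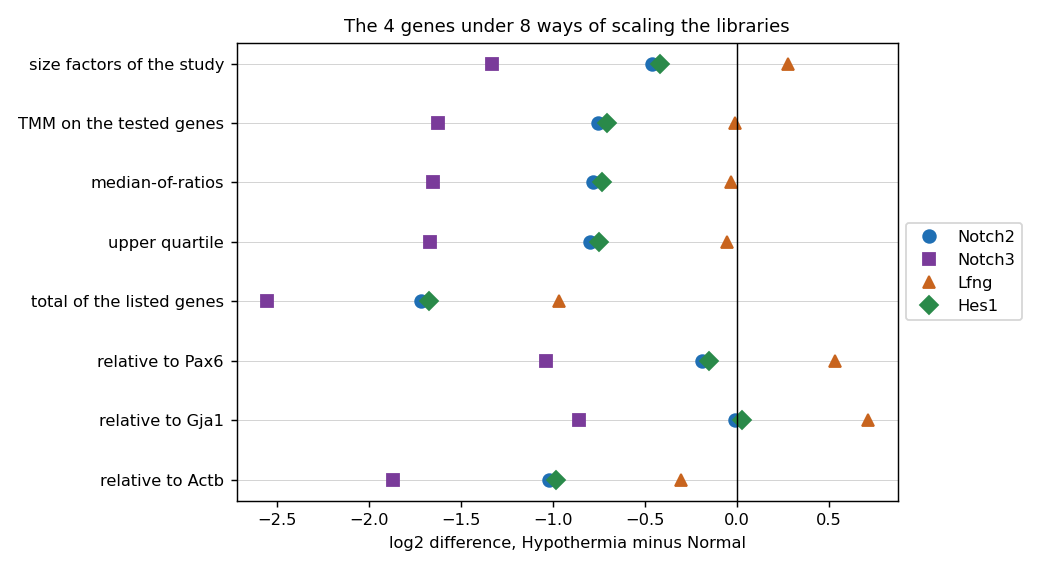
Log2 difference between the Hypothermia and Normal Groups for Notch2, Notch3, Lfng and Hes1 under 8 ways of scaling the libraries (1 row each). Notch3 is below 0 in each, from -2.55 to -0.86, Lfng is highest of the 4 in each and crosses 0, and Notch2 and Hes1 stay beside each other.

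The rest of the pathway was followed with a list of 85 genes, of which 21 are in the table and the other 64 were not analysed here. Of these 21, 13 were called as lower and 4 as higher in the Hypothermia Group, where 20.5% and 52.3% of all tested genes were called. The median log2FoldChange was -0.40 over the 21 and 0.36 over all tested genes. With TMM and adjustment over the tested genes alone, 16 were called as lower and 2 as higher, where 68.6% of all tested genes were called, 36.3% as lower and 32.3% as higher. The list was drawn up with earlier results of these data known.

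Of the ligands and receptors besides Notch2 and Notch3, Jag2, a ligand, had 54.9 ± 15.6 (SD, n = 5) normalized counts with hypothermia and 96.1 ± 23.1 (SD, n = 5) without, and its log2FoldChange was -0.81 (standard error 0.24, adjusted p = 0.0434, edgeR). Notch1, the third receptor of the table, had 1164 ± 160 (SD, n = 5) and 1541 ± 177 (SD, n = 5), with a log2FoldChange of -0.40 (standard error 0.11, adjusted p = 0.0359, edgeR). Each of these calls was kept in only 2 of the 10 fits that left out 1 rat. Like Lfng, Eogt is a glycosyltransferase that acts on the outer part of Notch receptors, and unlike Lfng it was lower, by a log2FoldChange of -0.48 (adjusted p = 0.00589, edgeR) without overlap of the groups. Psenen, a subunit of the γ-secretase that cuts the receptor, and Epn1, an adaptor used when ligands are taken up, were called as higher, with log2FoldChanges of 0.32 and 0.41. Under TMM, Psenen and Epn1 had log2FoldChanges of 0.03 and 0.12 and were not called.

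In the nuclear complex, Rbpj was lower with a very small spread. It had 735 ± 21.5 (SD, n = 5) normalized counts with hypothermia and 902 ± 24.9 (SD, n = 5) without, its log2FoldChange was -0.30 (standard error 0.06, adjusted p = 0.00926, edgeR), and it kept its call in each of the 10 fits that left out 1 rat. Of its partners, Maml2 was called as lower (-0.56) and Maml1 was not called (-0.28, adjusted p = 0.0832, edgeR). Of the corepressors, Spen and Kdm5a, which sit with Rbpj when no Notch fragment is bound, were called as lower (-0.37 and -0.32). Aes and Fhl1 were called as higher, with log2FoldChanges of 1.09 and 1.45. With 1 rat left out, Maml2 and Spen kept their calls in 5 of the 10 fits, Fhl1 in 8, and Kdm5a and Aes in all 10. Aes is a short relative of the Groucho corepressors and Fhl1 a LIM-domain protein that is also abundant in muscle.

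All 5 target genes in the table were called as lower, where 20.5% of all tested genes were. Besides Hes1, these were Hes5 (-0.86, standard error 0.17), Hey2 (-0.46, standard error 0.10), Heyl (-0.50, standard error 0.15) and Ccnd1 (-1.03, standard error 0.27), which encodes cyclin D1 and answers to many other signals too. Hes5 and Hey2 had no overlap between the groups, as 16.7% of all tested genes in this direction, and kept their calls in each fit that left out 1 rat. Hes1 kept its call in 7 of those 10 fits, Ccnd1 in 4 and Heyl in 1. With the replicate number as a block, Hes1, Heyl and Ccnd1 were not called (adjusted p = 0.0661, 0.123 and 0.106, edgeR). Hes5 and Hey2 stayed called (adjusted p = 0.0418 and 0.0385, edgeR). Same-numbered rats are not pairs, and under that block 134 of all 3222 tested genes were called as lower, against 662 without it. The remaining 8 target genes of the list were not analysed here.

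**Figure D5:**
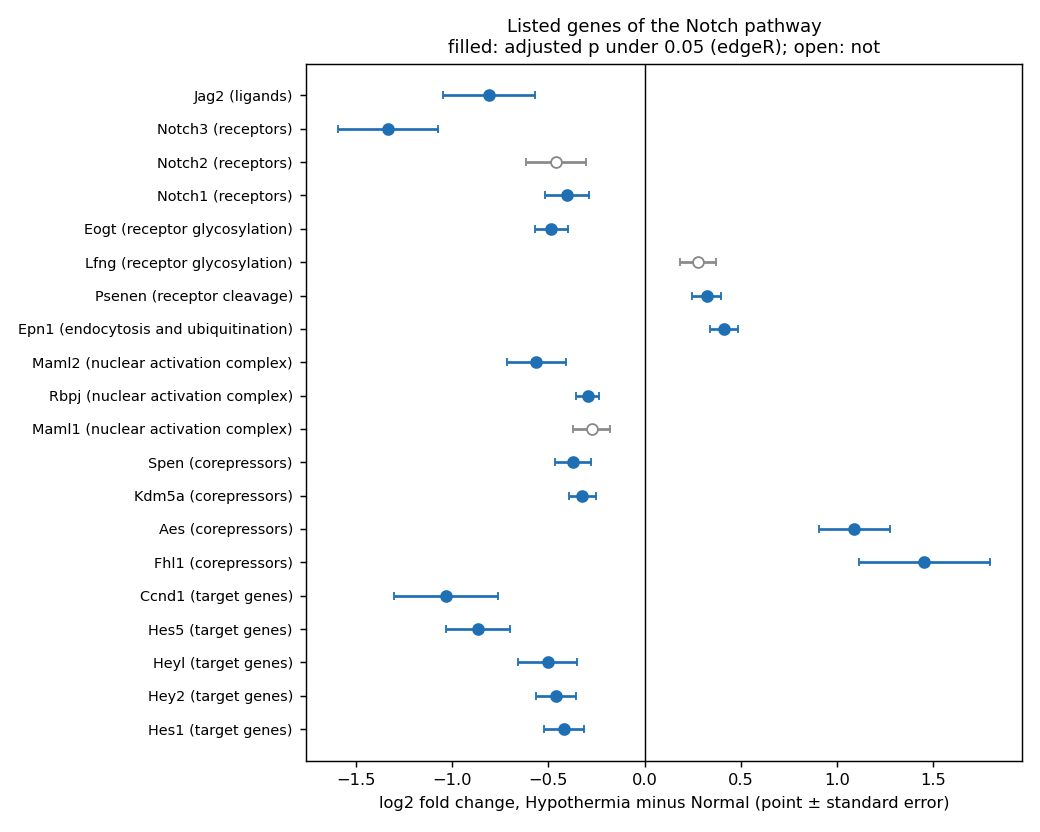
Log2FoldChange ± standard error (edgeR, size factors of the study) of 20 of the 21 listed genes of the Notch pathway, grouped by role; filled points have an adjusted p under 0.05. The 15 genes left of 0 include all receptors and target genes, and the 5 on the right are Lfng, Psenen, Epn1, Aes and Fhl1.

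Summed markers of some cell types also differed between the groups. In such bulk samples, fewer cells of a type and less RNA per cell cannot be told apart. Of 10 lens fibre markers, 8 were in the table, and their summed normalized counts were 2884820 to 5944510 with hypothermia and 551335 to 2112150 without. Most of that sum was Cryaa, with means of 2696520 and 831127 in the same order, and Crybb2, with 1039870 and 266034. Of 8 lens epithelium markers, Pax6 and Gja1 were in the table, with sums of 18843 to 23817 and 25604 to 32027 in the same order. The mural list, which bears on Notch3, had 3 of 11 markers in the table (Pdgfrb, Cspg4 and Tagln), with sums of 725 to 1062 in Hypothermia rats against 1223 to 1802 in Normal rats. Pdgfrb, the PDGF receptor of pericytes, was called as lower (-0.87), and Cspg4 and Tagln were not. The endothelial list (2 of 8) summed to 311 to 411 against 395 to 653. The 7 markers of macrophages and 6 of red blood cells were not analysed here. The part of these cells in the Notch results was not tested.

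Normal replicates 4 and 5, which had the 2 highest values of both receptors, also had the 2 highest sums of fibroblast markers and of pigment and ciliary markers. The 3 fibroblast markers of 7 in the table (Col1a1, Fn1 and Fbn1) summed to 935 to 4911 with hypothermia and 2034 to 30336 without. The 5 of 10 markers of pigment and ciliary epithelium in the table summed to 75.5 to 312 in Hypothermia rats against 163 to 1530 in Normal rats. Those sums were mostly Fbn1, fibrillin-1, at 27614 and 30055 in the 2 rats, and Mfrp, a membrane protein of the pigment and ciliary epithelium, at 696 and 1301. Cdh6 was also highest in these 2 rats, but other markers were not. Fn1, fibronectin, was highest in Normal replicate 3 (975) and at 106 and 221 in Normal replicates 4 and 5. Col1a1, a collagen gene, was highest in Normal replicate 4 (534) and at 60.4 in Normal replicate 5. Rpe65, of the visual cycle, and Tyr, of melanin synthesis, were highest in Normal replicate 1 (25.9 and 33.3). Pearson r was computed across the 10 rats with each group's mean taken away. With the fibroblast sum it was 0.853 for Notch2, 0.748 for Notch3, 0.252 for Hes1 and -0.431 for Lfng. With the pigment and ciliary sum it was 0.751, 0.665, 0.077 and -0.582 in the same order. The fibroblast sum was mostly Fbn1 in Normal replicates 4 and 5, so it follows that gene rather than fibroblasts as a cell type. Hes1 had 0.683 with the lens epithelium sum and -0.663 with the lens fibre sum, and Notch3 had -0.639 with the endothelial sum. With the mural sum, r was 0.177 for Notch3, -0.029 for Notch2, 0.385 for Hes1 and 0.716 for Lfng. These values describe 10 rats that share their libraries' scaling. Without Normal replicates 4 and 5, the log2FoldChange was -0.95 for Notch3, -0.31 for Hes1, -0.20 for Notch2 and 0.24 for Lfng. In that fit edgeR called none of the 4 genes, none of the 21 pathway genes and 0 of all 3254 tested. Even so, 17 of the 21 and 2695 of the 3254 had an unadjusted p under 0.05. The lowest adjusted p was 0.0571, and that of Notch3 was 0.0615 (edgeR), just over the threshold. DESeq2 on the same 8 rats called 1413 genes, among them Notch3 and 9 others of the 21. Why the tools differ was not tested.

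Within the groups, the 4 genes did not follow each other closely. With each group's mean taken away, the Pearson r over the 10 rats was 0.505 for Notch2 with Hes1, 0.424 for Notch2 with Notch3, 0.073 for Notch3 with Hes1 and -0.491 for Notch2 with Lfng. Among the 2896 named genes whose normalized counts averaged 50 or more, those most like Notch2 were Mgat3, Serinc5 and Pnma8b (r = 0.986, 0.964 and 0.957). Those most like Notch3 were Fam149a, Lrp5 and Astn1 (r = 0.905, 0.904 and 0.897). Hes1 was followed most closely by Efnb3, Cbx7 and Zdhhc6 (r = 0.931, 0.879 and 0.863), and Lfng by Fam76b, Zfp799 and Fam43a (r = 0.826, 0.822 and 0.819). Of these 12 genes, all had lower means in the Hypothermia Group under this scaling, including the 3 most like Lfng, whose own mean was higher. With 10 rats, the highest of 2896 correlations is high in any case, and the values are given as a description.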

How the data were processed

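RNA from the lens capsules of 10 rats was sequenced. Clean paired-end reads were aligned by the authors to Rnor_6.0 with HISAT2 2.0.5, and the deposited counts are whole reads per gene from featureCounts 1.5.0-p3 without normalization. The annotation release is not given in the sources used here. FPKM values were also deposited, and in all 10 rats they are proportional to the count divided by the size factor and the length. The 2 columns of group means are the authors' mean normalized counts, a signal from DESeq2 1.16.1. They also deposited fold changes and p-values, which were not used. The library kit is not named as stranded.

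Because each group mean is a weighted sum of its rats' counts, the size factors were recovered by least squares (largest relative error 9.2e-10). The quasi-likelihood test of edgeR 4.0.16 (R 4.3.3) was run on the counts, with robust glmQLFit after filterByExpr and estimateDisp, and the model held the group alone. Benjamini-Hochberg adjustment was set to the number of expressed genes stated by the study. Standard errors are the log2FoldChange over the square root of F. Ratios used a pseudocount of 0.5, single values were compared by exact permutation over 252 assignments, and 95% intervals hold the shifts that this test does not reject. Likeness used log2(normalized count + 1). The 4 genes, the gene lists and the scaling were chosen with earlier results of these data known. The text names the 4 genes, the called genes of the pathway list, the 3 most similar genes of each and markers of other cells, and others where a sentence turns on them. Results for some genes of the lists are not reported here. The labels give no batch. No 2 libraries of a group were identical or alike within counting noise. Alternatives were other scalings, filters, tools (DESeq2 1.42.0, limma-voom 3.58.1), adjustments, a replicate block and each rat left out. Scaling to Pax6, Gja1 or Actb and leaving out Normal replicates 4 and 5 were added after seeing the data. Promoter windows came from RefSeq (GRCr8). Figures were drawn with matplotlib 3.10.9.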

Additional observations from a re-analysis of the deposited data

How the results depend on the processing

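Leaving out 1 rat at a time gave log2FoldChanges from -0.53 to -0.36 for Notch2, -1.46 to -1.10 for Notch3, 0.23 to 0.34 for Lfng and -0.49 to -0.35 for Hes1. The log2 ratio differences ranged from 0.71 to 0.99 for Notch2/Notch3, -0.85 to -0.61 for Notch2/Lfng, -0.11 to 0.040 for Notch2/Hes1, -1.76 to -1.35 for Notch3/Lfng, -1.05 to -0.71 for Notch3/Hes1 and 0.60 to 0.76 for Lfng/Hes1. Between 1372 and 2385 of all tested genes and between 9 and 16 of the pathway genes were called.

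Notch2, uncalled in the main analysis, was called under TMM (-0.75, also with adjustment over the tested genes), TMM without the lens genes (-0.76), median-of-ratios (-0.78), upper-quartile (-0.80) and listed-total scaling (-1.71), DESeq2 with its own size factors (-0.78) and with those of the study (-0.46), adjustment over the tested genes alone (-0.46, a setting that called 3221 of all 3222 genes and all 21 of the pathway) and relative to Actb (-1.02). Lfng was called as higher with DESeq2 and the study's size factors (0.28, where 2846 of 3222 genes were called). It was also called with adjustment over the tested genes (0.28, where 3221 were). Relative to Pax6 (0.53) and Gja1 (0.71) it was higher, each with an unadjusted exact p of 0.00794, a direction given by the listing. It turned negative under TMM (-0.010, also with adjustment over the tested genes), TMM without the lens genes (-0.016), median-of-ratios in edgeR (-0.034) and DESeq2 (-0.034), upper-quartile (-0.055) and listed-total scaling (-0.96, called as lower with an adjusted p of 0.00415 from edgeR) and relative to Actb (-0.30). Hes1 differed by -0.15 relative to Pax6 (unadjusted exact p = 0.190) and by 0.029 relative to Gja1 (unadjusted exact p = 0.754). The shifts under other scalings follow from the scalings' own construction. With DESeq2 on the study's size factors and with adjustment over the tested genes, the log2FoldChanges of Notch2 and Lfng stayed at -0.46 and 0.28. Only their p-values or adjusted p-values differed there. The share of all called genes that were lower was 28.2% with the study's size factors and 63.2% with TMM.

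Without Normal replicates 4 and 5, Notch3 (-0.95, adjusted p = 0.0615) and Hes1 (-0.31) lost their calls in edgeR. In that fit 0 of the pathway genes and 0 of all tested genes were called, with a lowest adjusted p of 0.0571 (edgeR). At an unadjusted p under 0.05 there were 2695, and DESeq2 called 1413. The log2 ratio differences were 0.75 for Notch2/Notch3, -0.45 for Notch2/Lfng, -1.20 for Notch3/Lfng, -0.66 for Notch3/Hes1 and 0.54 for Lfng/Hes1. Their adjusted p-values were 0.107 to 0.129 from the exact permutation test, while Notch2/Hes1 changed sign (0.090). With fewer rats the smallest p that this test can give is itself larger.

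Both groups number their rats 1 to 5, but same-numbered rats are different animals, so the numbers do not pair them. The correlations of their deviations ran from -0.190 to 0.235, and whether same-numbered rats shared handling was not tested. With the replicate block, 942 of all tested genes and 8 of the pathway genes were called and Hes1 was not (-0.41). The paired test on ratios cannot reach an adjusted p under 0.05 with 5 pairs, and its differences are those of the main analysis, 0.85 for Notch2/Notch3, -0.72 for Notch2/Lfng, -1.57 for Notch3/Lfng, -0.89 for Notch3/Hes1 and 0.68 for Lfng/Hes1. No library's full depth was known.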

Other observations

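The genes of the pathway differed in the spread of their normalized counts within a group. In the Normal Group the normalized count of the histone demethylase gene Kdm5a had a coefficient of variation of 0.984%, that of Rbpj 2.76% and that of Eogt 2.84%, against 22.7% for Notch2 and 37.6% for Notch3. In the Hypothermia Group the values were 6.45% for Kdm5a, 2.92% for Rbpj and 12.4% for Eogt, against 14.3% for Notch2 and 25.7% for Notch3. Hes1 had 13.98% in the Normal Group and 7.46% in the Hypothermia Group, and Lfng 7.37% and 11.4%. The spreads were not compared by a test, and spread from counting was not separated from that between rats.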
